A study of Mus musculus with 12 samples.

Results

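The genes described here encode 4 serine proteases that sit at the epithelial cell surface and 2 inhibitors of such enzymes. They are Tmprss2, St14 (matriptase), Prss8 (prostasin) and Hpn (hepsin), with the Kunitz-type inhibitors Spint1 and Spint2. The members were all probe sets whose platform gene symbol is one of these 6, which gave 8 of the 22690 probe sets of the array: 2 for Tmprss2, 2 for Spint2 and 1 for each of the others. The genes were chosen on knockout against wild-type signals of these same arrays, so their differences in that comparison are given as descriptions, with no p-value.

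The samples were mammary gland tumours from female mice of strain FVB that carried MMTV-c-myc, in which the mouse mammary tumour virus promoter expresses c-Myc, mainly in mammary epithelium. 6 arrays held tumours with the Hunk KO genotype and 6 tumours with the Hunk WT genotype, and both groups carried the transgene. The knockout allele, made in E14 embryonic stem cells, replaced the putative promoter and first exon of Hunk, a kinase of the Snf1 family, with a neomycin cassette flanked by LoxP sites. Per the labels the genomic DNA used for targeting came from a strain other than FVB, so such DNA may lie at the targeted allele. The females had been mated before they were monitored for tumours, ages are not given, and the labels do not say whether each array came from a separate animal, so the spread between arrays may be partly technical.

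Membrane-anchored serine proteases are made as inactive precursors and are activated by cleavage at the cell surface. In surface epithelia matriptase and prostasin act in one proteolytic cascade. Matriptase and hepsin can cleave the precursor of hepatocyte growth factor, the ligand of the Met receptor. Spint1 and Spint2, also called HAI-1 and HAI-2, are transmembrane inhibitors that hold these enzymes in check, and in mice loss of either inhibitor is deleterious to epithelia in a matriptase-dependent way. TMPRSS2 is best known as an androgen-induced gene of the prostate.

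The deposited values were log2 GCRMA signals, with array medians between 3.87 and 4.10. The highest of 27 Bacillus control probe sets on an array, which no mouse transcript matches, was taken as its background and ranged from 3.60 to 4.00 in the knockout and from 3.45 to 3.75 in the wild type. The targeted gene itself was at or below background in all 6 knockout tumours (2.95 ± 0.17, SD, n = 6) and higher than background in 4 of 6 wild-type tumours (4.21 ± 1.05, SD, n = 6). The 2 most similar arrays were those of knockout tumours 4 and 5 (SD of their difference over probe sets 0.259, against 0.412 for the next pair), and member differences are therefore also given with this pair averaged. Epithelial genes were far above background, as the tissue label calls for, with means over the 12 arrays of 12.10 for the keratin gene Krt18, 11.81 for the adhesion gene Epcam and 9.51 for the cadherin gene Cdh1.

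The promoters of 4 of the 6 genes were found in RefSeq's tables for GRCm38.p6, and they are shown because Hpn and Spint2 varied together between tumours and Tmprss2 differed most between the genotypes. Each is the 250 bases upstream of an annotated start, and for Hpn, which has 2 entries, the outermost start. Capitals mark the motifs searched on both strands: the E-box CACGTG bound by Myc, the Grainyhead-like consensus AACCGGTT, the ETS-family consensus CCGGAAGT and the GC box GGGCGG, which reads CCGCCC on the other strand. The motifs were chosen with the sequences in view, no match overlapped another, and a match is a description of letters. St14 and Prss8 were not matched.
Tmprss2, chr16:97611196-97611445, minus strand: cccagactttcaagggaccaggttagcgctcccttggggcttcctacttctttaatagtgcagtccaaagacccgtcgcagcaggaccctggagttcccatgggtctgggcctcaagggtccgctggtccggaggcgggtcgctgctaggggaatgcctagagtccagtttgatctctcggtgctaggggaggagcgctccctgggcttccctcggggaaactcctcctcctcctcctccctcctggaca
Hpn, chr7:31115327-31115576, minus strand: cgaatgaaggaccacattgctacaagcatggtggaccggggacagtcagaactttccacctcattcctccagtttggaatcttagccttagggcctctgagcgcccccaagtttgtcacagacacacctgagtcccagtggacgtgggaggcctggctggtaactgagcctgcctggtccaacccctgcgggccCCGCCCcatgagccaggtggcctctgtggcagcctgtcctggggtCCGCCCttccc
Spint1, chr2:119237110-119237359, plus strand: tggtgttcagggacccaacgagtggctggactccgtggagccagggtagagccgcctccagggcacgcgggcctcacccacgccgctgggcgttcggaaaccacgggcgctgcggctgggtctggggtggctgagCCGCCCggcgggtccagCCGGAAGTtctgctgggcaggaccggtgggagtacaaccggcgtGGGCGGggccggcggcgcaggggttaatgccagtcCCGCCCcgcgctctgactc
Spint2, chr7:29281978-29282227, minus strand: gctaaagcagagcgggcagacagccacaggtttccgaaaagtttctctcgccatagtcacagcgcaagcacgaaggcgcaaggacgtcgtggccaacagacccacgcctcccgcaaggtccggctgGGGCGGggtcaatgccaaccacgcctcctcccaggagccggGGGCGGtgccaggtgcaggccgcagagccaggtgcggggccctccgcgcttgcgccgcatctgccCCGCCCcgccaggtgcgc

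The GC box occurred 2 times upstream of Hpn and 3 times each upstream of Spint1 and Spint2, and it was in 33.0% of 32544 distinct promoters of the same length. The ETS motif was found once, upstream of Spint1, and was in 2.9% of all promoters. The E-box and the Grainyhead-like motif were in none of the 4, and in 6.03% and 0.117% of all promoters. None of the 4 motifs was in the Tmprss2 window. GC content was 61.6% for Tmprss2 and Hpn, 72.8% for Spint1 and 69.6% for Spint2, against a median of 52.4% over all promoters.

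Tmprss2, a type II transmembrane protease, was higher in every knockout tumour than in any wild-type tumour on its brighter probe set, 1419154_at. The knockout signals ran from 4.93 over a median of 5.81 to 6.50, and the wild-type signals from 3.25 over a median of 3.82 to 4.50. The knockout tumours split into a higher trio, tumours 1, 5 and 6, at 6.13 or more, and tumours 2, 3 and 4, at 5.49 or less. In the wild type, tumours 2, 3 and 6 were above array background and tumours 1, 4 and 5 were at or below it. The means were 5.77 ± 0.67 (SD, n = 6) and 3.84 ± 0.58 (SD, n = 6), a log2 difference of 1.93 (SE 0.33), or 3.81-fold. With signals raised to array background where they fell below it the log2 difference was 1.81, so the size rests in part on the background.

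The other Tmprss2 probe set, 1449369_at, gave a smaller difference and overlapping groups. Knockout signals ran from 3.80 over a median of 4.03 to 5.08, and wild-type signals from 3.57 over a median of 3.72 to 3.93. It lay above array background on all 12 arrays, but by as little as 0.01 in knockout tumour 3 and 0.04 in wild-type tumour 1. The margin was largest in knockout tumours 1 (1.48) and 6 (0.76), and knockout tumour 1 was highest on both probe sets. The log2 difference was 0.47 (SE 0.19), and 5 of 6 knockout tumours exceeded every wild-type tumour. Its mean over all arrays, 3.98, fell just short of the expression filter, the median probe-set mean, so that 7 of the 8 member probe sets were carried into the fit over all probe sets.

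In that fit 1 of the 7, the brighter Tmprss2 probe set, was past the array-wide limma threshold, a Benjamini-Hochberg adjusted p under 0.05, and it had passed the filter through its knockout signals. Over the array 2.46% of 11313 probe sets passed, 1.18% being higher and 1.28% lower in the knockout. The groups did not overlap in 1.49% with the knockout higher and in 1.38% with it lower. Nothing is read from the members' count, since the genes came from this comparison. The share of calls over the array itself depended on single tumours, with 278 probe sets called in all and 134 without wild-type tumour 4, 161 without knockout tumour 5, 167 without knockout tumour 6, 168 without knockout tumour 4 and 184 without wild-type tumour 6.

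**Figure D1:**
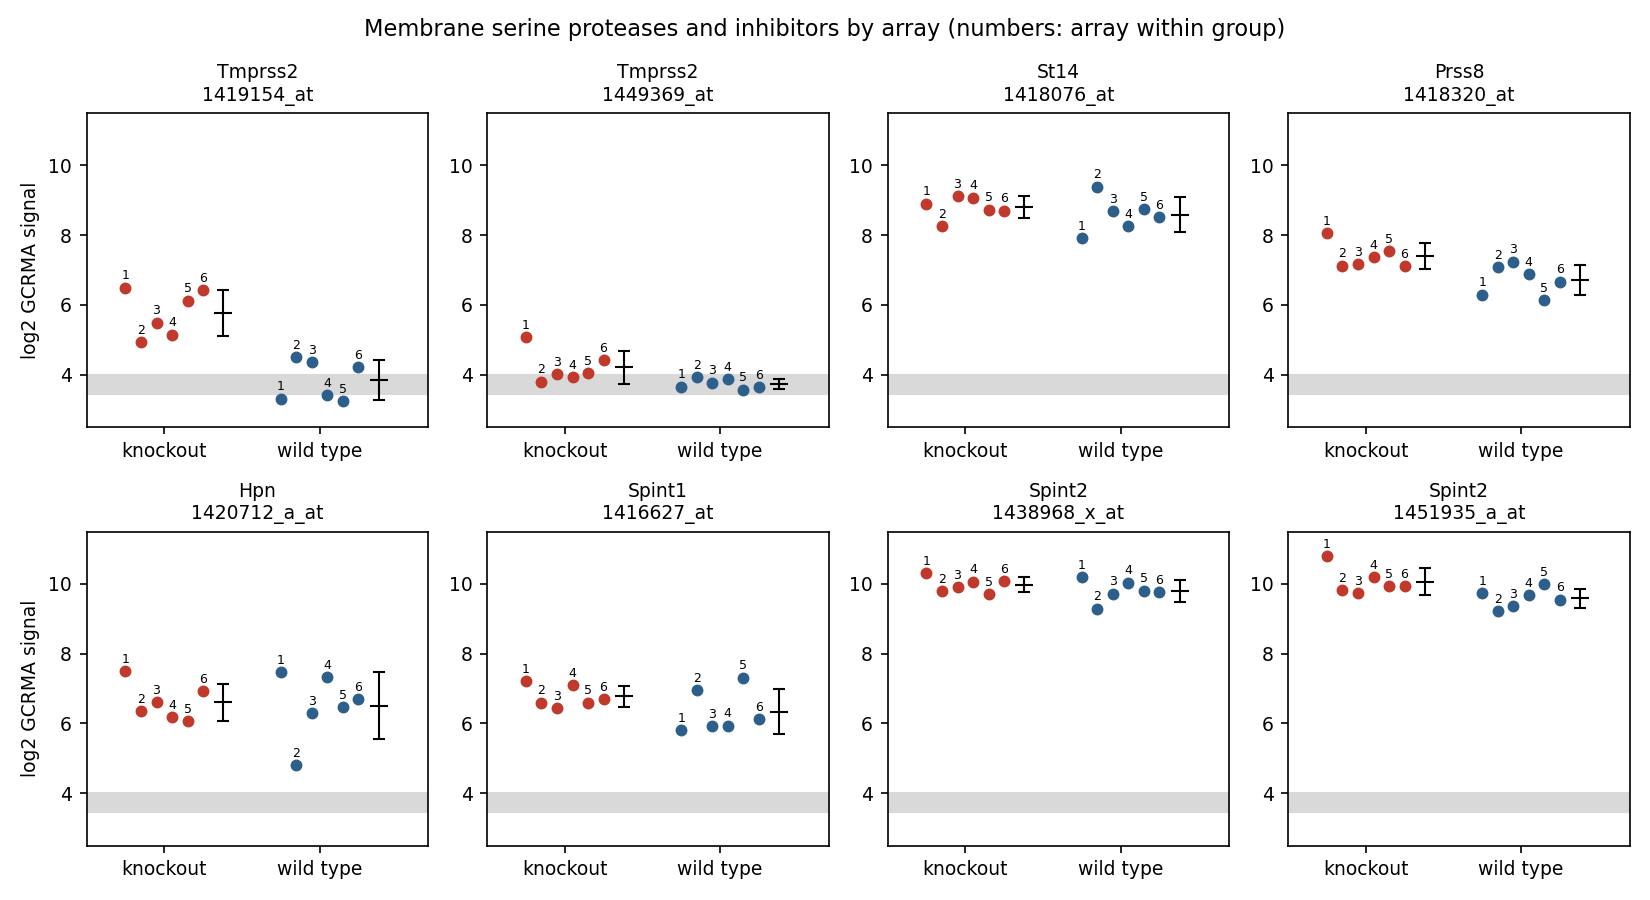
Log2 GCRMA signal (vertical axis) of the 8 member probe sets on each of the 12 arrays. Points are single arrays, numbered within their group and coloured red for knockout and blue for wild type, black bars are the mean ± SD (n = 6), and the grey band is the range of array backgrounds. Tmprss2 probe set 1419154_at is the panel whose groups do not overlap.

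Matriptase, encoded by St14, was well above background in all tumours and its groups overlapped almost completely. Knockout signals ran from 8.26 over a median of 8.81 to 9.13, and wild-type signals from 7.91 over a median of 8.60 to 9.39. Both the highest and the lowest signal of all 12 arrays were in the wild type, in tumours 2 and 1. The log2 difference was 0.21 (SE 0.23), or 1.16-fold.

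Prostasin, encoded by Prss8, is a protease tethered to the membrane by a lipid anchor. Its knockout signals ran from 7.12 over a median of 7.27 to 8.07, and its wild-type signals from 6.14 over a median of 6.78 to 7.24. All 6 knockout tumours were above the wild-type median, 3 of them were above every wild-type tumour, and 5 of 6 wild-type tumours were below every knockout tumour. The means, 7.40 ± 0.37 (SD, n = 6) and 6.72 ± 0.44 (SD, n = 6), differed by 0.68 on the log2 scale (SE 0.22), or 1.60-fold.

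Hepsin, encoded by Hpn, was the member that varied most within the wild type. Wild-type signals ran from 4.81 in tumour 2 over a median of 6.58 to 7.47 in tumour 1, with an SD of 0.95, and knockout signals from 6.07 over a median of 6.48 to 7.49, with an SD of 0.53. The groups overlapped, and 3 of 6 knockout tumours were above the wild-type median. The log2 difference was 0.09 (SE 0.41) and changed sign without wild-type tumour 2 (-0.25), without knockout tumour 1 (-0.08), with array weights (-0.18) and with the epithelial markers as a covariate (-0.13).

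The inhibitor Spint1 had a lower wild-type median with 2 wild-type tumours set apart above it. Knockout signals ran from 6.44 over a median of 6.65 to 7.21. Wild-type signals ran from 5.82 over a median of 6.03 to 7.32, and wild-type tumours 5 and 2, at 7.32 and 6.95, were the ones that overlapped the knockout. All 6 knockout tumours were above the wild-type median and none was above wild-type tumour 5. The log2 difference was 0.43 (SE 0.27), or 1.35-fold.

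The inhibitor Spint2 was read by 2 probe sets that gave differences of different size. On 1438968_x_at the knockout signals ran from 9.71 over a median of 9.98 to 10.31 and the wild-type signals from 9.29 over a median of 9.78 to 10.18, a log2 difference of 0.18 (SE 0.16). On 1451935_a_at they ran from 9.73 over a median of 9.93 to 10.79 and from 9.23 over a median of 9.61 to 9.99, a log2 difference of 0.47 (SE 0.19). Groups overlapped on both. The suffix of the first marks probes that can match related transcripts.

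All 8 probe sets, which read 6 genes, thus had a positive difference, and quantile normalization or centring the arrays on their medians left each positive. Not every alternative did: Hpn was negative with array weights (-0.18), among others, and St14 with the epithelial markers as a covariate (-0.07). Nothing is read from these signs, since the genes came from this comparison. Over all genes tested 3465 of 6825 had a positive difference and the median was 0.01 on the log2 scale. The median over the 6 genes, each at its brighter probe set, was 0.32. With knockout tumours 4 and 5 averaged the differences were 1.95 and 0.52 for Tmprss2, 0.19 for St14, 0.67 for Prss8, 0.19 for Hpn, 0.42 for Spint1, and 0.20 and 0.48 for Spint2.

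**Figure D2:**
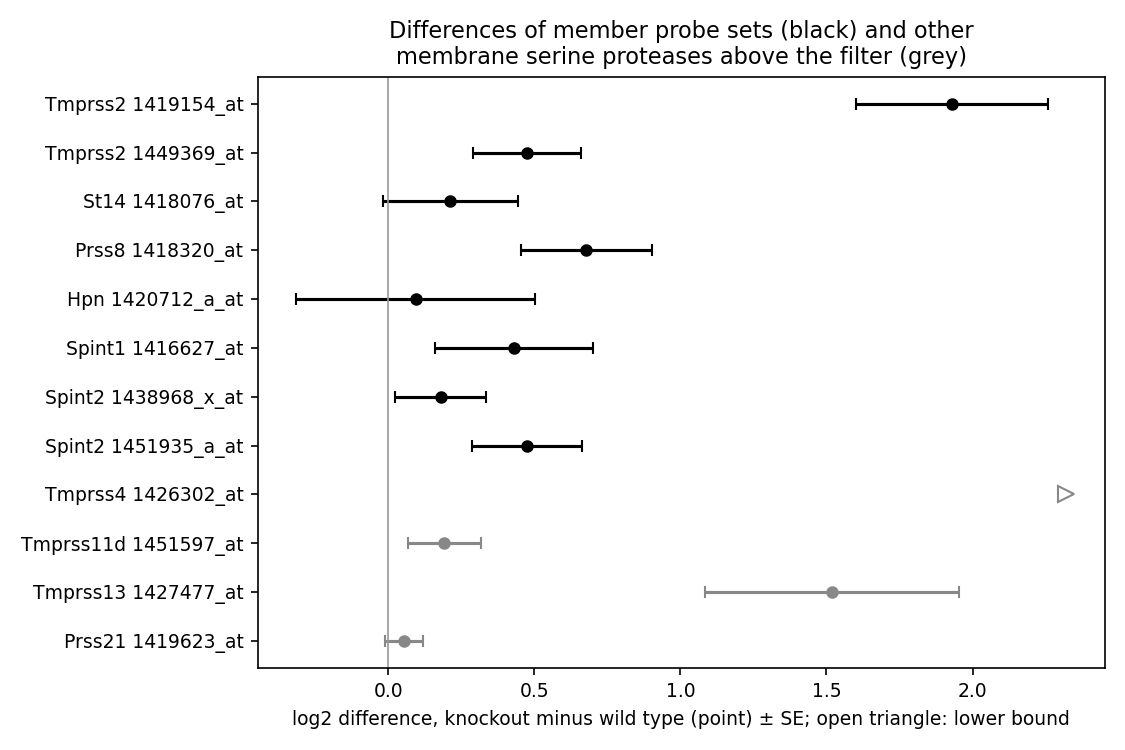
Difference of group means on the log2 scale, knockout minus wild type (horizontal axis; points, n = 6 against 6), with its standard error (bars), for the 8 member probe sets in black and the 4 other membrane serine proteases past the expression filter in grey. The open triangle is a lower bound for Tmprss4 (2.32), which was at or below background in all wild-type tumours. Tmprss2 1419154_at lies at 1.93 and Tmprss13 at 1.52.

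Measures of tissue and RNA moved with genotype beside these differences. The mean of 9 epithelial markers was 9.95 ± 0.19 (SD, n = 6) in knockout tumours against 9.21 ± 0.21 (SD, n = 6), without overlap. The keratin gene Krt19 rose by 4.08 on the log2 scale (limma adjusted p = 0.0424, a call kept without 3 of the 12 arrays in turn). The mean of the other 8 overlapped, from 9.56 to 10.09 in the knockout and from 8.99 to 10.19 in the wild type. Of the 9 markers 1 rose, 0 fell and 8 did not pass, where 1.66% of all genes tested rose and 1.68% fell. Of the 9 differences 7 were positive, with a median of 0.39 on the log2 scale. They were -0.17 for Krt18 and -0.19 for Epcam, and among the positive ones 1.08 for the claudin gene Cldn4 and 0.14 for Cdh1. The log2 of the summed signal of the list ran from 13.64 to 14.39 in the knockout and from 13.32 to 14.19 in the wild type, and none of the markers was at background on all arrays. With the marker mean as a covariate the Tmprss2 differences were 2.52 and 0.95, and St14 changed sign (-0.07). In such bulk samples fewer cells of a type and less RNA per cell cannot be told apart.

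As a sign of RNA quality, the beta-actin signal near the 3' end exceeded that near the 5' end by 1.51 ± 0.15 (SD, n = 6) in knockout tumours, against 1.29 ± 0.05 (SD, n = 6). Only knockout tumour 1, at 1.26, lay within the wild-type range of 1.21 to 1.34. With this measure as a covariate the log2 differences became larger for Tmprss2 (2.38 and 1.00), Prss8 (1.13), Hpn (0.76), Spint1 (0.60) and Spint2 (0.44 and 0.95) and smaller for St14 (0.08). The covariate nearly separates the groups, so these values lean on knockout tumour 1, the highest of its group on 7 of 8 member probe sets. The part of RNA quality in the differences was not tested.

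Markers of other cell types were looked at in the same arrays, and 0 of 29 genes tested in these lists passed the limma threshold. At an unadjusted p under 0.05 there were 10, against 1332 of all 6825 genes. Of the macrophage markers 0 of 8 had a positive difference (Lyz2, log2 difference -0.18, and C1qc, the largest, -1.03). At an unadjusted limma p under 0.05 were C1qa, C1qb and C1qc. The summed log2 signal of the 8 ran from 10.30 to 11.66 in the knockout and from 10.75 to 11.63 in the wild type. The 3 adipocyte markers tested were positive (Fabp4, 1.51), with sums from 7.93 to 11.91 against 7.93 to 8.87. Fibroblast markers were positive in 3 of 4 (Col3a1, 0.94), and the other, Fbln2, went the opposite way (-1.79). Sums of the fibroblast list ran from 10.91 to 12.25 against 10.49 to 11.61. Dcn, Lum, Pdgfra and Thy1 were at background on all arrays, as were Cidec and Retn. Basal markers were positive in 3 of 6 (Acta2, 0.24, and Krt14, 2.52) and negative in the others (Krt5, -0.56). Sums of the basal list ran from 9.41 to 10.66 against 9.02 to 10.58. For skeletal muscle (Acta1, 0.29) sums reached 12.64 in the knockout and 8.82 in the wild type, from lowest values of 5.43 and 5.38. T-cell (Cd4, 0.12), B-cell (Ighm, -0.02) and endothelial (Eng, 0.03) sums lay between 5.92 and 7.20 in both groups, with Cd3g, Cd3d, Cd8a, Cd79a, Cd79b, Pecam1, Cdh5 and Kdr at background throughout. Of 5 mast-cell genes only Kit, also made by luminal progenitors, was above background (log2 difference -2.95, adjusted p = 0.0876), and sums ran from 5.63 to 8.90 against 8.66 to 10.09. The part of these lists in the member differences was not tested.

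Tmprss2 lies on chromosome 16, as Hunk does. Between them RefSeq's GRCm38.p6 table lists 65 protein-coding genes, of which 56 were on the array and 31 were tested. Of these 0 were higher and 2 lower in the knockout, Ttc3 (log2 change -1.38, limma adjusted p = 0.0132), which encodes a ubiquitin ligase, and the nucleosome-binding gene Hmgn1 (-0.42, adjusted p = 0.0345). That is 6.45% of the tested genes between them, against 3.34% of all 6825 genes tested. Of the 3 protein-coding neighbours on each side of Tmprss2, 5 were on the array, and the 1 tested, the kinase gene Ripk4, had a log2 difference of -0.16 (adjusted p = 0.577). Effects of the targeted allele or of flanking DNA of another strain on neighbouring genes and probes cannot be told apart here from the loss of Hunk.

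Tumour-to-tumour variation within a genotype does not use the comparison by which the genes were picked. For 4 pairs of an enzyme with an inhibitor or another enzyme, correlations were taken over deviations from the group means on the 12 arrays, with each gene at its brighter probe set and a two-sided permutation test within groups. St14 and its inhibitor Spint1 gave Pearson r = 0.60 (p = 0.0829, adjusted p = 0.209) and Spearman rho = 0.49 (p = 0.145). St14 and Spint2 gave r = -0.54 (permutation p = 0.105, adjusted p = 0.209) and rho = -0.43 (p = 0.190). St14 and Prss8 gave r = 0.38 (permutation p = 0.270) and rho = 0.32 (p = 0.344), and Tmprss2 and St14 gave r = 0.43 (permutation p = 0.173) and rho = 0.20 (p = 0.534). None of the 4 had a p under 0.05, adjusted or not, over the 12 arrays. The Tmprss2 signal was at or below array background in wild-type tumours 1, 4 and 5. Without wild-type tumours 1 and 2, farthest from the median of St14, the first 3 r values were 0.37, 0.15 and 0.07, and without knockout tumours 1 and 2, farthest from that of Tmprss2, the last was 0.30.

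Within the 6 wild-type tumours St14 and Spint2 ran opposite to each other, r = -0.98 (exact permutation p = 0.00556, adjusted over 8 within-group tests p = 0.0444), higher St14 going with lower Spint2. The rank correlation was weaker, rho = -0.83 (exact permutation p = 0.0583, adjusted p = 0.411). Without wild-type tumours 1 and 2, an alternative added after seeing the data, r over the other 4 wild-type tumours was -0.82, and without each wild-type tumour in turn it ran from -0.99 to -0.94. With the other Spint2 probe set r in the wild type was -0.54. In the 6 knockout tumours r was 0.41 (exact permutation p = 0.425). The difference between the genotypes was not tested. The other 6 within-group values did not pass (adjusted p from 0.433 to 0.778).

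Over all 15 pairs of the 6 genes r was positive in 15 among the knockout tumours, from 0.14 to 0.83. That count depended on single arrays: it was 11 without knockout tumour 1, where Prss8 with Hpn went from 0.52 to -0.79, 12 without knockout tumour 2, and 15 without each of the other 4. These counts were added after seeing the data. r was positive in 5 among the wild-type tumours, where it ran from -0.98 to 0.98. In the wild type Hpn and Spint2 stood on one side and Tmprss2, St14, Prss8 and Spint1 on the other, with all 8 values across negative, and Spint1 was also negative with Prss8 (-0.29) and near 0 with Tmprss2 (-0.01). Wild-type values of Tmprss2 rest in part on tumours 1, 4 and 5, where its signal was at or below array background. The values across stayed negative without each wild-type tumour in turn. Without both wild-type tumours 1 and 2, Prss8 was near 0 with Hpn (0.04) and with Spint2 (-0.03). Without wild-type tumour 5, Spint1 was positive with Prss8 (0.41) and with Tmprss2 (0.65). Wild-type tumour 2 had the highest St14 signal and the lowest Hpn and Spint2 signals of its group, and knockout tumour 1 had the highest signal of its group on 7 of 8 probe sets. These 15 pairs, other than the 4 above, are a description of 6 arrays each, with no test.

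**Figure D3:**
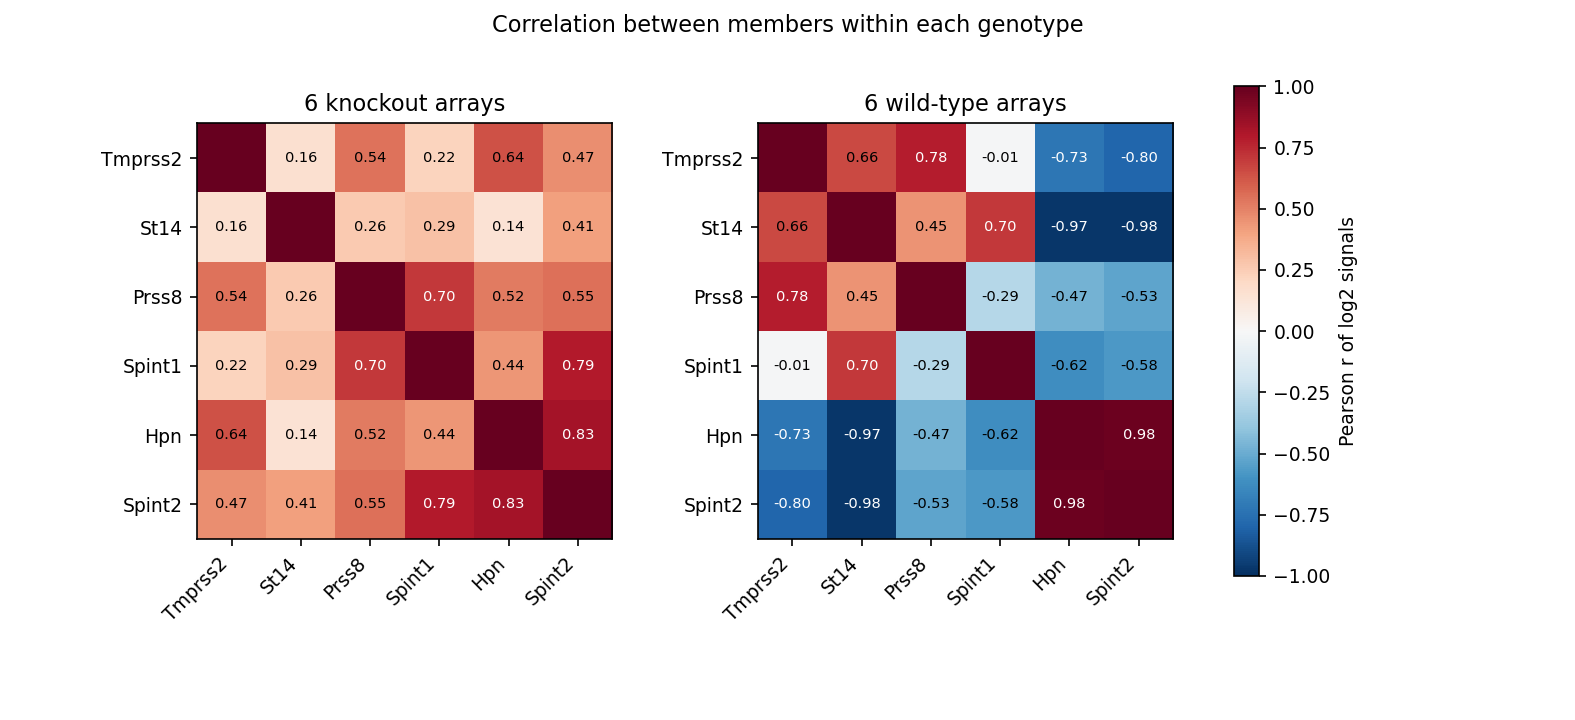
Pearson r between the log2 signals of member genes (rows and columns, each gene at its brighter probe set) over the 6 knockout arrays (left) and the 6 wild-type arrays (right). Colour runs from blue at -1 to red at 1. All 15 pairs are positive on the left (11 without knockout tumour 1 and 12 without knockout tumour 2), and Hpn and Spint2 are negative with the other 4 genes on the right. Without both wild-type tumours 1 and 2, Prss8 is near 0 with Hpn (0.04) and with Spint2 (-0.03). On the right, Tmprss2 is at or below array background in tumours 1, 4 and 5.

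The closest pair was Hpn and Spint2, singled out after the values were seen and so given without a test. Over deviations on the 12 arrays r was 0.93 and rho 0.87, and without wild-type tumours 1 and 2 r was 0.85. With the other Spint2 probe set r was 0.59. Both genes lie on chromosome 7, as Prss8 does, and 21 tested genes lie between them. The median r of those 21 with Hpn was 0.13, with 11 of 21 positive, against 0.05 for 448 other genes of the chromosome and -0.07 for all 6824 other genes tested. The gene with the highest r with Hpn, Ech1 (0.94), was among those 448. Of the 21, 0 passed the knockout against wild-type threshold. Any part of chromosome position in the correlation was not tested.

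**Figure D4:**
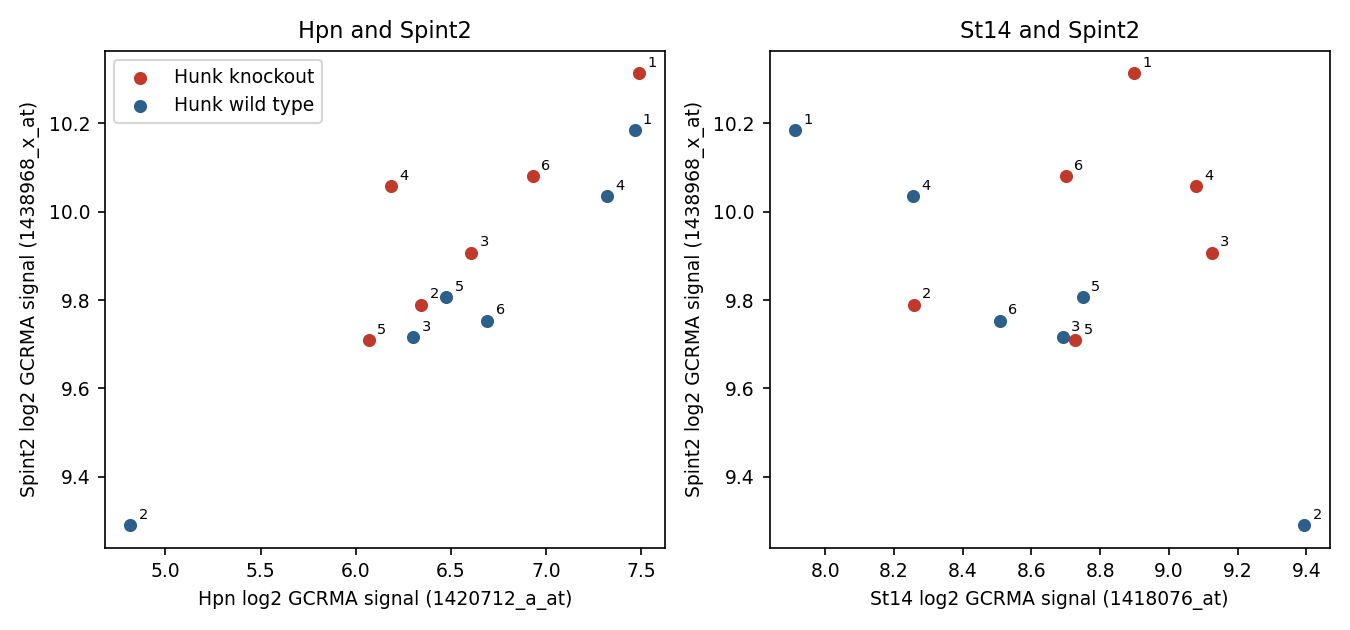
Log2 GCRMA signal of Spint2 (vertical axes, probe set 1438968_x_at) against Hpn (left) and St14 (right), 1 numbered point per array, red for knockout and blue for wild type. Wild-type tumour 2 lies at the low end for Hpn (4.81) and the high end for St14 (9.39), with the lowest Spint2 signal.

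The genes most like each member by r of deviations over the 12 arrays, out of 6824, are given as a description. For Tmprss2, at or below background in wild-type tumours 1, 4 and 5, they were Tpt1 (0.89), Trim33 (0.85) and Simc1 (0.82). For St14 they were the immediate early gene Ier2 (0.94), the histone variant gene Macroh2a1 (0.93) and Nop14 (0.90). For Prss8 they were the condensin gene Ncapg2 (0.94), Rhpn2 (0.93) and Spast (0.91), and for Spint1 they were Trp53inp2 (0.92), Ddx39b (0.90) and Ube2v1 (0.86). Hpn was most like Ech1 (0.94), an enzyme of fatty acid oxidation, Spint2 (0.93) and the kinase gene Pdk2 (0.93), and Spint2 most like Hpn (0.93), Plin3 (0.88) and Napa (0.88). Of these like genes Rhpn2, Ech1, Spint2, Hpn and Napa lie on chromosome 7, as their members do. Trp53inp2 and Ube2v1 lie on chromosome 2, as Spint1 does. The rest lie on a chromosome other than that of their member.

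Other membrane-anchored serine proteases were counted from a list of 22, of which 12 were on the array and 4 were tested. With limma 0 of the 4 passed the threshold. Of all genes 3.34% passed, 1.66% being higher and 1.68% lower in the knockout. The 4 include Tmprss4, described below, which had passed the filter through its knockout signals, so no count at an unadjusted p is given. By the rule for named genes those given here are Tmprss13, a type II transmembrane protease of epithelia, and Tmprss11d. Tmprss13 signals ran from 6.52 to 7.27 in the knockout and from 3.31 to 6.46 in the wild type, without overlap, and only wild-type tumour 2 was at background. Its log2 difference was 1.52 (SE 0.43, limma adjusted p = 0.0789), and it passed without wild-type tumour 2. Tmprss11d had a log2 difference of 0.19 (SE 0.12, adjusted p = 0.402).

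Tmprss4, another protease of this family, falls outside that rule and was chosen after its values were seen. It was at or below background in all 6 wild-type tumours and above it in all 6 knockout tumours, at 8.33, 7.67 and 6.95 in tumours 3, 6 and 2 and between 3.85 and 4.58 in tumours 1, 4 and 5. The knockout mean was 5.92 ± 1.96 (SD, n = 6), at least 5.00-fold higher with wild-type signals raised to array background. It had passed the expression filter through its knockout signals, so no p is given. Another 8, among them the enteropeptidase gene Tmprss15 and Corin, were at background on all arrays.

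None of the genes tested in the next 2 lists passed in limma, where 3.34% of all genes passed and 19.5% had an unadjusted p under 0.05. The first held 18 genes, secreted serine proteases that act at the cell surface together with F3, a membrane cofactor that is not itself a protease. Of these 17 were on the array and 4 were tested, with 0 at an unadjusted p under 0.05 and 2 of 4 differences positive. The coagulation initiator F3 had a difference of -0.32 (adjusted p = 0.482) and the kallikrein gene Klk6 one of -0.07 (SE 1.35, adjusted p = 0.976). Klk6 was above background on only 3 knockout and 2 wild-type arrays, so its difference gives little measure of change. The urokinase gene Plau was at background on all arrays. Of 24 other serine protease inhibitors 10 were tested, 7 were positive and 1 had an unadjusted p under 0.05 (median log2 difference 0.21). Examples were Wfdc18, of mammary epithelium (0.13, adjusted p = 0.794) and the leukocyte protease inhibitor Slpi (0.56, adjusted p = 0.588).

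Of 21 substrates and receptors of these proteases 9 were tested and 0 passed in limma. At an unadjusted p under 0.05 were 2 of the 9 (22.2%), 0 of them higher in the knockout, against 19.5% of all genes tested. 4 of the 9 differences were positive and the median was -0.03. Epcam, a cell adhesion protein cleaved by matriptase, had a log2 difference of -0.19 (adjusted p = 0.500) and E-cadherin, Cdh1, one of 0.14 (adjusted p = 0.476). Hgf and its receptor gene Met, Mst1 and its receptor gene Mst1r, and the sodium channel subunits Scnn1a, Scnn1b and Scnn1g, which membrane proteases can cleave, were at background on all 12 arrays, so this array gave no measure of change for them.

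Among 16 regulators of epithelial gene expression 9 were tested, 2 rose, 0 fell and 7 did not pass (median log2 difference 0.74, 5 of 9 positive). Of all genes tested 1.66% rose and 1.68% fell. At an unadjusted limma p under 0.05 were 6 of the 9, 5 of them higher in the knockout, against 19.5% of all genes tested. Klf4, 1 of the 6, had a wild-type mean of 3.71, under the filter, and was tested through its knockout signals. Nothing is read from that count, since the list was written with earlier results known. Esrp2, an epithelial splicing factor, averaged 8.23 ± 0.16 (SD, n = 6) against 7.49 ± 0.32 (SD, n = 6), a log2 change of 0.75 (SE 0.15, limma adjusted p = 0.0256), and its call was lost without knockout tumour 4, knockout tumour 6 or wild-type tumour 4. Elf5, an ETS factor of milk-producing epithelium, averaged 10.64 ± 0.60 (SD, n = 6) against 8.52 ± 1.30 (SD, n = 6), a change of 2.12 (SE 0.53, adjusted p = 0.0490), and kept its call without wild-type tumour 2 or wild-type tumour 6 but lost it without any of the other 10 arrays. Both were higher in every knockout tumour than in any wild-type tumour, as were 1.71% of all genes tested, while 1.44% were lower without overlap. For Elf5 the lowest knockout signal, 9.87, was close to the highest wild-type one, 9.84.

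**Figure D5:**
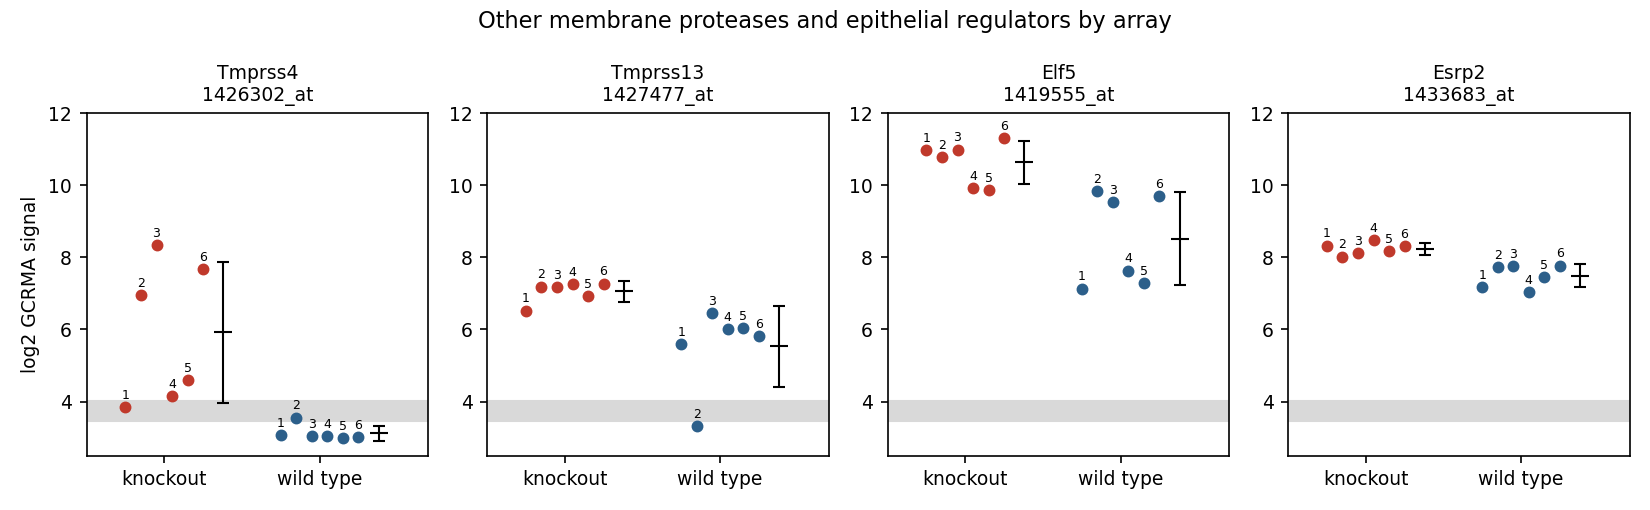
Log2 GCRMA signal (vertical axis) of Tmprss4, Tmprss13, Elf5 and Esrp2 on each array, drawn as for the member genes with mean ± SD (n = 6) and the grey band of array backgrounds. Knockout points lie above wild-type points in each panel, with Tmprss4 at or below background in the wild type.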

How the data were processed

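The authors' deposited values were log2 signals of 22690 probe sets on 12 Affymetrix arrays, made with GCRMA per the submitters' processing notes, which give no version. RNA was extracted with Trizol and hybridised as biotinylated cRNA, per the labels' protocols. GCRMA pulls dim signals toward a floor and so compresses their differences. The values were used as deposited, and 0 columns were left unused.

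Probe sets were named from the platform annotation, with symbols updated through gene identifiers in a RefSeq table of GRCm38.p6 (20364 of 20393 probe sets with 1 symbol matched). Where a gene had several probe sets, the brightest by its mean on the 12 arrays stood for it. Probe sets above the median mean (3.98), controls left out, were fitted with limma 3.58.1 (lmFit, eBayes with trend) in R 4.3.3, group being the only term, with Benjamini-Hochberg adjustment over all 11313 probe sets or 6825 genes and a threshold of 0.05. Standard errors are limma's moderated ones. Permutation tests used 100000 draws within groups, or all orderings for 6 arrays. The labels name no batch.

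The members and the gene lists were chosen with earlier results of these data known. Named were all members, the 3 genes most like each, up to 5 genes past the threshold of each list or else the 2 of highest mean, the marker of highest mean in each cell type list, Hunk, and up to 3 genes past the threshold on chromosome 16 between Hunk and Tmprss2. Tmprss4, Ripk4, Cldn4, Klf4, Fbln2, C1qa, C1qb, C1qc, Krt14, Krt5 and the genes given as at background were named outside this rule, after their values were seen.

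The fit was tested on simulated data for knockout against wild type with 6825 genes. Of genes changed by 1 on the log2 scale 70.0% were recovered and of those changed by 2, 94.0%, with 10 false calls among 174, and with no gene changed 0 were called. Alternatives were no filter or the 75th percentile, robust eBayes, eBayes without trend, centring on medians, quantile normalization, a floor at background, a replicate block, knockout arrays 4 and 5 averaged, 2 covariates, array weights, genes as means of probe sets, and each array left out. Figures were drawn with matplotlib 3.10.9.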

Additional observations from a re-analysis of the deposited data

How the results depend on the processing

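The brighter Tmprss2 probe set kept a log2 difference between 1.78 and 2.52 under the 24 alternatives run for it. With the replicate block or the epithelial covariate it was no longer past the limma threshold, and 0 member probe sets were. The count was also 0 with the filter at the 75th percentile, where this probe set fell below the filter and was not tested. The differences of Prss8, Spint1 and both Spint2 probe sets stayed positive in all of theirs, St14 was negative under 1 and Hpn under 4. The value moved by more than the spread between arrays with the beta-actin covariate for Prss8 (1.13), the dimmer Tmprss2 probe set (1.00) and Spint2 1451935_a_at (0.95), and with the epithelial covariate for the dimmer Tmprss2 probe set (0.95).

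Against 228 genes and 278 probe sets called, the counts were 112 and 152 with no filter, 125 and 170 with knockout arrays 4 and 5 averaged, 72 and 104 with the beta-actin covariate, 1 and 1 with the epithelial covariate, which separates the groups almost as genotype does, and 402 and 602 with array weights. Leaving out 1 array gave 95 to 212 genes and 134 to 315 probe sets; the gene count was 95 without wild-type tumour 4, 130, 135 and 138 without knockout tumours 6, 5 and 4, and 150 without wild-type tumour 5. Centring on medians turned 113 higher and 115 lower genes into 68 and 126. Of the 2 genes called in the related lists, 1, Esrp2, passed with no filter, eBayes without trend, quantile normalization or median centring. It also passed with knockout arrays 4 and 5 averaged or genes as means of probe sets, and 0 passed with either covariate. Leaving out 1 array gave 0 to 3 related genes called, and these were not always the same 2. Tmprss13 joined both without wild-type tumour 2. Tmprss4 was called beside Esrp2 without knockout tumour 1, and alone without knockout tumour 4. With array weights the 2 called were Esrp2 and Tmprss4. Nothing is read from the calls of Tmprss4, which had passed the filter through its knockout signals. The cause of these shifts in counts was not tested.

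With the replicate number as a replicate block, 69 genes, 112 probe sets and 1 related gene were called. The numbers do not pair the arrays clearly, since correlations of deviations between arrays of the same number ran from -0.02 to 0.14 and 3 of 6 knockout arrays were most like the wild-type array of their own number. All 4 correlations had an adjusted p above 0.05 in each alternative. Unadjusted p-values by the permutation test fell below it for St14 with Spint2 without knockout tumour 2 (0.0232) and for St14 with Spint1 without knockout tumour 3 (0.0329) or wild-type tumour 5 (0.0485). The ranges with 1 array left out were 0.47 to 0.71 for St14 with Spint1, -0.75 to -0.19 for St14 with Spint2, 0.23 to 0.52 for St14 with Prss8 and 0.27 to 0.56 for Tmprss2 with St14. The number of arrays limits the precision, and near background, where the dimmer Tmprss2 probe set lies, signals carry little information on size.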
